A study of Mus musculus with 40 samples.

Results

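The transcriptomes of mouse developing oligodendrocytes kept for 8 h with interferon-gamma (IFN-gamma), a cytokine released by activated T cells and natural killer cells, were set directly against those of the same cells kept for 8 h with thapsigargin, an inhibitor of the calcium pumps of the endoplasmic reticulum (ER). The comparison rests on 8 libraries, 4 for each treatment, of the 40 in the series, and they were chosen by their treatment and time labels, with no measured value used. All cells were wild-type on a C57BL/6 background and received no genetic change. Per the labels, oligodendrocyte progenitors were purified by immunopanning from the cortices of pups 6 days old, passaged for 2 cycles, allowed to differentiate for 12 to 14 h and then given IFN-gamma at 200 U/ml or thapsigargin at a labelled 200 uM. Plates were assigned to a treatment at random, and the controls are labelled untreated. The labels also carry an age of 6 to 7 days and name whole brain as the tissue, beside a growth protocol that names cortices. Untreated cells of 8 h (4 libraries) show where each treatment lies relative to no treatment, and the same treatments at 1 h (4 libraries each) show the early difference in libraries that the 8 h comparison does not use. The labels do not say whether the 4 libraries of a group came from separate cultures or animals. The p-values below thus measure only the spread between libraries within groups, pooled over the 10 groups and 40 libraries of the fit. The sex-linked levels of the compared libraries, given below, differ within each treatment.

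IFN-gamma binds a receptor made of IFNGR1 and IFNGR2 chains, whose kinases JAK1 and JAK2 phosphorylate transcription factors of the STAT family. STAT dimers bind GAS elements and induce IRF1 and other interferon regulatory factors, which act with them on GTPases, antigen presentation genes and antiviral genes. Thapsigargin blocks the SERCA pumps that fill the ER with calcium, and the loss of calcium disturbs protein folding there. The sensors PERK, IRE1 and ATF6 answer, of which PERK phosphorylates eIF2alpha, which favours translation of ATF4, an inducer of CHOP and of amino acid genes. IRE1 splices Xbp1 mRNA and cleaved ATF6 enters the nucleus, and both raise chaperone and degradation genes. Oligodendrocytes make large amounts of membrane lipid and protein through the ER, and both IFN-gamma and ER stress have been studied in them in relation to myelin loss.

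Depth was between 15547716 and 21384964 reads on genes in the 8 libraries. On the first principal component of the 12 libraries of 8 h and the 8 of 1 h, which held 54.4% of the variance, the IFN-gamma libraries of 8 h lay between -48.90 and -47.14, the thapsigargin libraries of 8 h between 44.75 and 47.22 and the untreated libraries of 8 h between 3.89 and 5.03. The second component held 34% and set both treatments of 8 h apart from the rest. On it, IFN-gamma lay between -27.98 and -26.66 and thapsigargin between -31.46 and -29.57 at 8 h. Untreated libraries of 8 h lay between 19.25 and 21.09, and the treated libraries of 1 h between 12.15 and 22.03. Sex-linked transcripts differed between libraries of 1 group: together, the Y-linked genes Kdm5d, Eif2s3y, Uty and Ddx3y stood at 7.28, 316, 0.661 and 311 CPM (read counts scaled to library size) in the IFN-gamma libraries and 405, 24.98, 409.8 and 270.1 CPM in the thapsigargin libraries, each listed from replicate 1 to 4. Reads on rRNA-like genes made up 1.59% to 9.68% of the IFN-gamma libraries and 0.586% to 7.01% of the thapsigargin libraries. Olig1, Olig2, Sox10, Pdgfra and Cspg4, which mark the oligodendrocyte lineage, each had a mean of at least 312 CPM in each treatment, while the microglial markers Aif1 and Csf1r and the endothelial markers Cldn5 and Cdh5 had 0 reads in the IFN-gamma libraries.

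The treatments differed in most genes. Of 15135 genes tested, 9289 passed the test (edgeR's quasi-likelihood F test, Benjamini-Hochberg adjusted p under 0.05, here termed called), of which 4761 were higher under IFN-gamma and 4528 higher under thapsigargin. These are 31.5% and 29.9% of the genes tested, the shares against which counts within a gene list are to be read. A called difference of at least 2-fold was seen in 1691 genes (11.2%) higher under IFN-gamma and 1540 (10.2%) higher under thapsigargin, and of at least 8-fold in 305 and 221. The libraries of the treatments did not overlap in 4690 genes that were above and 4449 genes that were below under IFN-gamma, and they overlapped in 5996. The median log2 difference over all genes tested was 0.0082 (IFN-gamma minus thapsigargin, the sign used throughout, with ± its standard error). Set against untreated cells of 8 h, IFN-gamma raised 1977 genes (13.1%) and lowered 1834 (12.1%), and thapsigargin raised 4482 (29.6%) and lowered 4692 (31%). These comparisons share libraries with the direct one, so their values are given only side by side with it. Without the 3 libraries of low Y-linked level (IFN-gamma replicates 1 and 3 and thapsigargin replicate 2) 7711 genes were called, and without replicate 1 of each treatment, the libraries with over 5% of rRNA-like reads, 8546 were. Fits of the 20 libraries with lower label numbers alone gave 7411 called genes, and those of the upper 20 alone 8025. Replicates 1 and 2 of each group have the lower numbers, which the labels do not call a batch. The 3811 genes called between IFN-gamma and untreated cells became 2456 with the upper 20 alone and 2513 without the libraries of low Y-linked level. Genes with almost no reads under thapsigargin, or under IFN-gamma, passed the filter on low counts (0.535 CPM in at least 4 libraries) only through groups where they were higher. A count of called genes among those that passed only describes such a list and supports nothing. For the interferon lists, members that did not reach the minimum in all 4 thapsigargin libraries are counted as under it. For lists with genes higher under thapsigargin, members are counted likewise in the IFN-gamma libraries. Among protein-coding genes 33% were called higher under IFN-gamma and 31.8% higher under thapsigargin, against 22% and 19.4% of long non-coding genes.

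**Figure D1:**
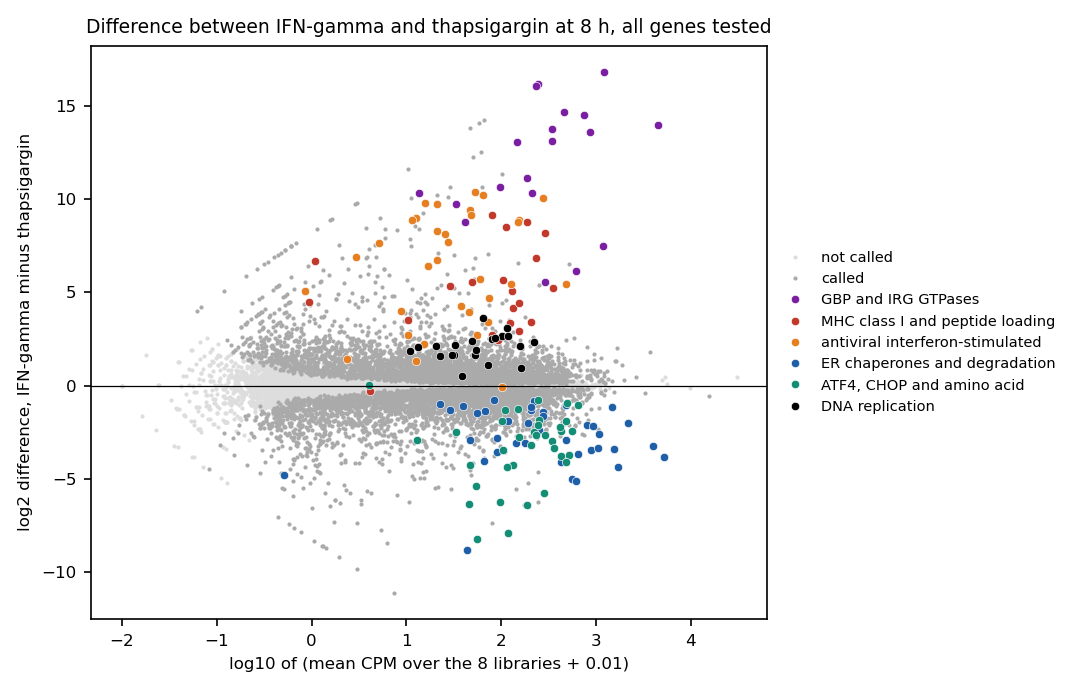
Each point is 1 of the 15135 genes tested, with the log10 of its mean CPM over the 8 libraries (plus 0.01) on the x axis and its log2 difference, IFN-gamma minus thapsigargin, on the y axis; called genes are dark grey and members of several gene lists are coloured. GBP and IRG GTPases reach the highest differences, most ER chaperone, degradation and amino acid genes lie below 0, and DNA replication genes lie above 0; for genes with no reads in a group the height depends on the prior count and is no measured fold.

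The signalling genes of the IFN-gamma pathway split into receptor chains, which did not pass the test, and kinases and STATs, which were higher under IFN-gamma. Of the 7 genes for the receptor, JAKs and STATs, 5 were called higher under IFN-gamma (median log2 difference 1.02). The receptor chains themselves were not called, with a log2 difference of -0.16 for Ifngr1 (adjusted p = 0.0548) and 0.10 for Ifngr2 (adjusted p = 0.314). Ifngr1 was called lower under IFN-gamma with other size factors (RLE) and with DESeq2, and without IFN-gamma replicate 1 or thapsigargin replicate 4. Against untreated cells, all 7 genes, the receptor chains among them, were called under IFN-gamma, 5 higher and 2 lower. Thapsigargin raised 1 and lowered 4 of the 7. Stat2, part of the type I interferon complex, was at 229, 229, 213 and 230.0 CPM under IFN-gamma and 19.96, 21.2, 17.6 and 19.4 CPM under thapsigargin, without overlap (log2 difference 3.52 ± 0.15, adjusted p = 2.90e-21). Jak2 was at 349.8, 369.6, 341 and 337 CPM under IFN-gamma and 147, 155, 141 and 144 CPM under thapsigargin. Jak1 was at 148, 162, 163 and 163 CPM under IFN-gamma and 78.99, 80.4, 79.8 and 74.9 CPM under thapsigargin. The difference was smaller for these kinases than for Stat2, at 2.38-fold for Jak2 and 2.02-fold for Jak1, with no overlap between the treatments.

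The interferon regulatory factors that passed the filter on low counts, 6 of 9, were all called higher under IFN-gamma, 1 of them under the filter's minimum in thapsigargin libraries. Irf1 was at 999.8, 990.4, 1021 and 1062 CPM under IFN-gamma and 10.4, 10.5, 12.3 and 11.7 CPM under thapsigargin, with untreated cells at 24.5 ± 1.30 CPM (SD, n = 4). Its IFN-gamma libraries were 90.8-fold above the thapsigargin libraries (log2 difference 6.50 ± 0.14, adjusted p = 4.39e-29), and its thapsigargin libraries lay below untreated cells (log2 -1.13 ± 0.12, adjusted p = 6.35e-10). Irf8, best known from myeloid cells, was at 301, 287, 306 and 305 CPM under IFN-gamma and 3.34, 2.56, 3.48 and 3.02 CPM under thapsigargin (log2 difference 6.60 ± 0.23, adjusted p = 1.31e-23). Irf9, the DNA-binding partner of STAT2, was at 123, 121, 129 and 134 CPM under IFN-gamma and 12.7, 11.8, 12.2 and 12.8 CPM under thapsigargin (log2 difference 3.36 ± 0.12, adjusted p = 6.92e-23), and Irf7, a type I interferon amplifier, reached 13.3, 9.77, 11.6 and 13.04 CPM against 0.0505, 0.0534, 0.0644 and 0 CPM. For Irf7 the ratio of reads was 274 (95% interval 93.4 to 1332), an interval that covers counting error only, as for all ratios and bounds below. The promoter of Irf1 is shown as an example of a GAS match, which the other annotated start of the gene lacks. The stretch, from RefSeq on GRCm38.p6 at chr11:53769904-53769952, plus strand, lies upstream of the first exon, and the capitals mark the match to the GAS motif TTCNNNGAA that starts 90 bases before the transcription start.

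Irf1: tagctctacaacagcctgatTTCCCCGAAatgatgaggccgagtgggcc

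Feedback inhibitors of cytokine signalling were also higher under IFN-gamma in 6 of 8 genes, and 1 was lower. Of the 8, 3 were under the filter's minimum in thapsigargin libraries. Socs1, which blocks JAK activity, was at 119, 93.8, 112 and 69.9 CPM under IFN-gamma and 1.82, 1.55, 0.966 and 0.459 CPM under thapsigargin, and every IFN-gamma library was above every thapsigargin library (log2 difference 6.30 ± 0.32, adjusted p = 1.01e-18). Usp18, which removes ISG15 from proteins and dampens type I interferon signalling, was at 20.4, 18.98, 19.02 and 20.5 CPM under IFN-gamma and 0.202, 0.374, 0.579 and 0.394 CPM under thapsigargin (log2 difference 5.68 ± 0.28, adjusted p = 5.68e-19). Socs2 was raised by both treatments against untreated cells (6.60 ± 1.04 CPM, SD, n = 4), to 55.8, 63.2, 50.7 and 39.4 CPM under IFN-gamma and 20.9, 21.2, 16.2 and 17.3 CPM under thapsigargin, and remained higher under IFN-gamma (log2 difference 1.47 ± 0.19, adjusted p = 2.32e-08). Ptpn2, a phosphatase that acts on JAKs, went the other way, at 28.01, 28.8, 31.03 and 28.8 CPM under IFN-gamma and 38.5, 40.4, 41.1 and 38.8 CPM under thapsigargin (log2 difference -0.44 ± 0.074, adjusted p = 3.03e-06).

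The guanylate-binding proteins (GBPs) and immunity-related GTPases (IRGs), large interferon-induced GTPases that attack vacuoles holding pathogens, were high under IFN-gamma and low under thapsigargin and in untreated cells. The GBP genes summed to 13160 to 14010 CPM under IFN-gamma, 26.1 to 35.2 CPM under thapsigargin and 17.5 to 22.2 CPM in untreated cells, and the IRG genes to 9590.0 to 10320, 13.6 to 14.8 and 60.6 to 88.6 CPM. Against untreated cells, thapsigargin raised 3 GBP genes and lowered 1 IRG gene. All 10 GBP genes and all 9 IRG genes that passed the filter were called higher under IFN-gamma. Of these, 8 GBP and 8 IRG genes were under its minimum in thapsigargin libraries. Most of the thapsigargin sum of the GBPs came from Gbp3 and Gbp7. Gbp3 had a mean of 17.4 CPM there against 1223 CPM under IFN-gamma (log2 difference 6.13 ± 0.22, adjusted p = 3.30e-23). Gbp7 had a mean of 12.0 CPM against 568 CPM (log2 difference 5.56 ± 0.19, adjusted p = 1.41e-23). Fitted values of genes with 0 to 3 thapsigargin reads depend on the prior count, so folds for them are given below as bounds or ratios of reads. Gbp2 was at 8846, 8375, 9139.6 and 9497 CPM under IFN-gamma and 0.809, 0.480, 0.386 and 0.525 CPM under thapsigargin, with untreated cells at 0.118 ± 0.0459 CPM (SD, n = 4). The IFN-gamma libraries were thus 15810-fold higher (log2 difference 13.95 ± 0.54, adjusted p = 4.18e-22), and thapsigargin stood above untreated cells (log2 2.23 ± 0.94, adjusted p = 0.0409). Gbp4 was at 1636, 1598, 1391 and 1329 CPM under IFN-gamma and 0.152, 0.0534, 0 and 0 CPM under thapsigargin. Gbp9 was at 217, 222, 179 and 169 CPM under IFN-gamma and 0.0505, 0.213, 0.129 and 0.0656 CPM under thapsigargin, again with no overlap. Gbp6 was at 675, 717, 697 and 689.5 CPM under IFN-gamma and 0, 0.0534, 0 and 0.131 CPM under thapsigargin, a ratio of reads of 16050 (95% interval 5492 to 77830). Gbp10 was at 296, 305, 283 and 306 CPM under IFN-gamma and 0.0505, 0, 0.0644 and 0 CPM under thapsigargin, a ratio of 10290 (95% interval 2848 to 84970). Gbp4, Gbp6 and Gbp10 have near-identical relatives in 1 cluster, so how reads were shared among them is uncertain for each gene alone. The Gbp2 promoter is shown as an example of the motif found in each GBP promoter matched. The stretch is at chr3:142620585-142620633, plus strand on GRCm38.p6 (RefSeq), and the capitals mark a match to the core of the interferon-stimulated response element (ISRE core, GAAANNGAA), read here on the opposite strand, 58 bases before the start.

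Gbp2: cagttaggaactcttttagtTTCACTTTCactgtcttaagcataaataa

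Among the IRGs, Igtp was at 1698, 1636, 1708 and 1819 CPM under IFN-gamma and 0.0505, 0.0534, 0.257 and 0.197 CPM under thapsigargin. Ifi47 was at 685, 627, 705 and 719 CPM under IFN-gamma and 0.0505, 0.107, 0 and 0.131 CPM under thapsigargin. The thapsigargin libraries all lay far below the IFN-gamma libraries, and untreated cells were low too, at 0.210 ± 0.107 CPM (SD, n = 4) for Igtp and 0 reads for Ifi47. Tgtp1 had no reads in any thapsigargin library and 443, 449.9, 479 and 472 CPM under IFN-gamma, at least 10648-fold higher taking 3 reads in all as the floor. Gm4951 likewise had 466, 494, 507 and 482 CPM against 0, at least 11272-fold higher, and Iigp1 had 2366, 2427, 2536 and 2501 CPM against 1 read, a ratio of 170300 (95% interval 30570 to 6727000). Tgtp1 and Tgtp2 are near-identical copies, as are Iigp1 and Gm4951, and the values of each pair may share reads. The predicted gene Gm4841 and the pseudogene BC023105 reached 112, 115, 124 and 115 CPM and 92.3, 92.01, 101 and 93.1 CPM with 0 reads in every thapsigargin library (at least 2698-fold and at least 2189.6-fold higher).

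Antigen presentation genes were higher under IFN-gamma at each step from peptide supply to surface display. All 11 tested genes for the supply and loading of class I peptides were called higher (median log2 difference 5.32), and each was also above untreated cells. Of the 11, 1 was under the filter's minimum in thapsigargin libraries. Psmb8 and Psmb9, subunits that turn the proteasome into the immunoproteasome, were far apart between the treatments. Psmb8 was at 363, 336, 382 and 400.1 CPM under IFN-gamma and 0.708, 1.23, 0.772 and 0.591 CPM under thapsigargin. Psmb9 was at 154, 151, 161 and 169 CPM under IFN-gamma and 0.354, 0.320, 0.129 and 0.262 CPM under thapsigargin. The differences were 439.9-fold for Psmb8 (log2 8.78 ± 0.25, adjusted p = 3.08e-26) and 566-fold for Psmb9 (log2 9.14 ± 0.21, adjusted p = 2.40e-28), with no overlap. Tap1, a chain of the transporter that brings peptides into the ER, was at 468, 444, 452 and 499 CPM under IFN-gamma and 4.397, 2.88, 4.76 and 4.20 CPM under thapsigargin, with untreated cells at 14.8 ± 1.06 CPM (SD, n = 4). Tap1 thus stood 115-fold higher under IFN-gamma (log2 difference 6.85 ± 0.19, adjusted p = 1.20e-26) and was lower under thapsigargin than in untreated cells (log2 -1.87 ± 0.17, adjusted p = 1.02e-11). Nlrc5, the transactivator of class I genes, was at 550.2, 589, 535 and 614 CPM under IFN-gamma and 1.97, 1.33, 1.80 and 2.76 CPM under thapsigargin (log2 difference 8.19 ± 0.31, adjusted p = 2.55e-22).

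Of the 10 class I chain genes, 9 were called higher under IFN-gamma, and 3 of the 10 were under the filter's minimum in thapsigargin libraries. B2m, the invariant light chain, was at 647, 622, 724 and 748 CPM under IFN-gamma and 17.99, 21.7, 17.1 and 17.3 CPM under thapsigargin (log2 difference 5.21 ± 0.16, adjusted p = 3.32e-25). H2-T23, which encodes the Qa-1 chain, was at 216, 205, 222 and 248 CPM under IFN-gamma and 0.606, 0.854, 0.322 and 0.591 CPM under thapsigargin, 365-fold higher under IFN-gamma. H2-K1, a classical class I heavy chain, was at 148, 125, 137.9 and 144 CPM under IFN-gamma and 24.7, 22.04, 19.6 and 17.8 CPM under thapsigargin, while untreated cells held only 7.11 ± 2.11 CPM (SD, n = 4). H2-K1 was therefore raised by both treatments, by log2 4.27 ± 0.22 (adjusted p = 7.91e-18) under IFN-gamma and log2 1.55 ± 0.21 (adjusted p = 9.91e-08) under thapsigargin, and the direct difference was 2.72 ± 0.20 (adjusted p = 5.87e-14). H2-M3, the only chain gene not called (log2 difference -0.28 ± 0.17, adjusted p = 0.155), was likewise above untreated cells under IFN-gamma (log2 2.59 ± 0.22, adjusted p = 8.81e-12) and under thapsigargin (log2 2.87 ± 0.22, adjusted p = 1.22e-13). H2 genes are near-identical over long stretches, so the value of each alone is uncertain.

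Class II genes, typical of professional antigen-presenting cells, were higher under IFN-gamma as well. Of 9 listed, 7 passed the filter and all of these were called higher under IFN-gamma, 6 of them under the filter's minimum in thapsigargin libraries. Ciita, the class II transactivator, was at 40.4, 41.1, 40.02 and 45.02 CPM under IFN-gamma and 0.0505, 0, 0 and 0.0656 CPM under thapsigargin, a ratio of reads of 1439 (95% interval 398 to 11890). H2-Ab1 was at 12.9, 12.8, 13.8 and 14.8 CPM under IFN-gamma and 0.758, 0.213, 0.451 and 0.459 CPM under thapsigargin. H2-Eb1 was at 9.37, 8.03, 10.03 and 10.2 CPM under IFN-gamma and 0, 0.0534, 0.257 and 0 CPM under thapsigargin, with each IFN-gamma library above each thapsigargin library. Cd74, the invariant chain, reached 1.22, 0.842, 1.05 and 0.642 CPM against 0, 0.0534, 0 and 0.197 CPM (log2 difference 3.88 ± 0.62, adjusted p = 1.65e-06).

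Antiviral genes usually tied to type I interferon were also higher under IFN-gamma, 32 of 33 tested (37 listed), of which 19 were under the filter's minimum in thapsigargin libraries. Ifit1, which binds foreign RNA ends, was at 103, 106, 102 and 112 CPM under IFN-gamma and 0.0505, 0.0534, 0.0644 and 0.131 CPM under thapsigargin (log2 difference 10.39 ± 0.33, adjusted p = 1.04e-24). Oasl2 was at 125, 129, 120.4 and 135 CPM under IFN-gamma and 0.152, 0.0534, 0.0644 and 0.131 CPM under thapsigargin. Parp14, an ADP-ribosyltransferase, was at 531, 588, 535 and 532 CPM under IFN-gamma and 0.657, 0.374, 0.386 and 0.591 CPM under thapsigargin, with the treatments far apart. Isg15, a ubiquitin-like modifier, was at 31.6, 29.1, 29.7 and 36.5 CPM under IFN-gamma and 0.0505, 0.0534, 0 and 0 CPM under thapsigargin, a ratio of reads of 1094 (95% interval 302 to 9039). The only tested member that was not called was Adar, an RNA-editing enzyme, with a log2 difference of -0.072 ± 0.059 (adjusted p = 0.299). Adar was above untreated cells under both treatments, by log2 0.94 ± 0.060 (adjusted p = 2.21e-15) under IFN-gamma and log2 1.01 ± 0.060 (adjusted p = 1.11e-16) under thapsigargin. Against untreated cells, thapsigargin lowered 10 and raised 2 of these antiviral genes.

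Secreted and surface immune genes were often filtered for low counts, and those that passed the test were higher under IFN-gamma. Of 17 chemokine and cytokine genes, 8 passed the filter, 5 of them under its minimum in thapsigargin libraries, and 6 were called higher under IFN-gamma. Csf1, a growth factor for macrophages and microglia, was at 81.05, 82.6, 89.1 and 86.3 CPM under IFN-gamma and 15.5, 18.9, 20.4 and 22.96 CPM under thapsigargin (log2 difference 2.13 ± 0.23, adjusted p = 3.39e-10). Cxcl10, a T cell chemokine, was at 11.9, 8.81, 6.39 and 4.56 CPM under IFN-gamma and 0.101, 0.0534, 0 and 0 CPM under thapsigargin, a ratio of reads of 185 (95% interval 62.8 to 898), with the treatments not overlapping. Cd274, which encodes the checkpoint ligand PD-L1, was at 113, 109.9, 96.8 and 99.03 CPM under IFN-gamma and 0.960, 0.801, 0.837 and 1.05 CPM under thapsigargin (log2 difference 6.84 ± 0.29, adjusted p = 5.80e-21). Icam1, an adhesion molecule, was at 12.2, 10.8, 10.3 and 9.76 CPM under IFN-gamma and 0.455, 0.0534, 0.129 and 0.459 CPM under thapsigargin. The death receptor Fas was at 21.5, 20.995, 19.6 and 19.3 CPM under IFN-gamma and 1.26, 1.55, 1.29 and 1.44 CPM under thapsigargin. 8 of 8 tested genes of the checkpoint, adhesion and death receptor list were higher under IFN-gamma (4 tested genes were under the filter's minimum in thapsigargin libraries), a count of 5 without thapsigargin replicate 3, in the lower or the upper 20 library numbers alone and in a fit of only the compared groups, and of 4 with the authors' estimated transcript counts summed to genes.

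Complement genes were called higher in 6 of 6 tested of 11, 5 of them under the filter's minimum in thapsigargin libraries. Serping1, the C1 inhibitor, was at 114, 116, 125 and 145 CPM under IFN-gamma and 0.101, 0.0534, 0 and 0.131 CPM under thapsigargin (log2 difference 10.63 ± 0.33, adjusted p = 4.52e-25). C1ra, a C1 protease, had 10.4, 9.60, 11.7 and 10.9 CPM against 0.0505, 0, 0 and 0 CPM, a ratio of reads of 737 (95% interval 132 to 29160). The Serpina3 cluster of protease inhibitors was higher in 5 of 5 tested genes (3 under that minimum in thapsigargin libraries), with Serpina3f at 133, 131, 123 and 140.4 CPM under IFN-gamma and 0 reads under thapsigargin (at least 3038-fold higher). Serpina3i was at 44.5, 46.9, 42.8 and 47.6 CPM under IFN-gamma and 0.708, 1.23, 1.29 and 1.05 CPM under thapsigargin. The cluster holds near-identical copies, so the split of reads between its genes is uncertain. Cell death genes of the pyroptosis and necroptosis list were higher in 8 of 9 tested genes of 12, 7 of the tested ones under that minimum in thapsigargin libraries. Mlkl, the executor of necroptosis, was at 45.1, 42.2, 42.4 and 40.5 CPM under IFN-gamma and 0.455, 0.267, 0.257 and 0.197 CPM under thapsigargin (log2 difference 7.11 ± 0.26, adjusted p = 5.03e-23). Casp4 was at 31.4, 26.3, 31.97 and 31.6 CPM under IFN-gamma and 1.36, 1.01, 0.386 and 1.18 CPM under thapsigargin. Casp12, a caspase of the ER membrane, was at 24.05, 24.1, 29.5 and 29.9 CPM under IFN-gamma and 0.101, 0.0534, 0.129 and 0 CPM under thapsigargin. Casp12 was therefore higher under IFN-gamma than under thapsigargin (log2 difference 8.41 ± 0.23, adjusted p = 2.03e-26), and thapsigargin was not called against untreated cells (log2 -1.05 ± 0.57, adjusted p = 0.189).

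**Figure D2:**
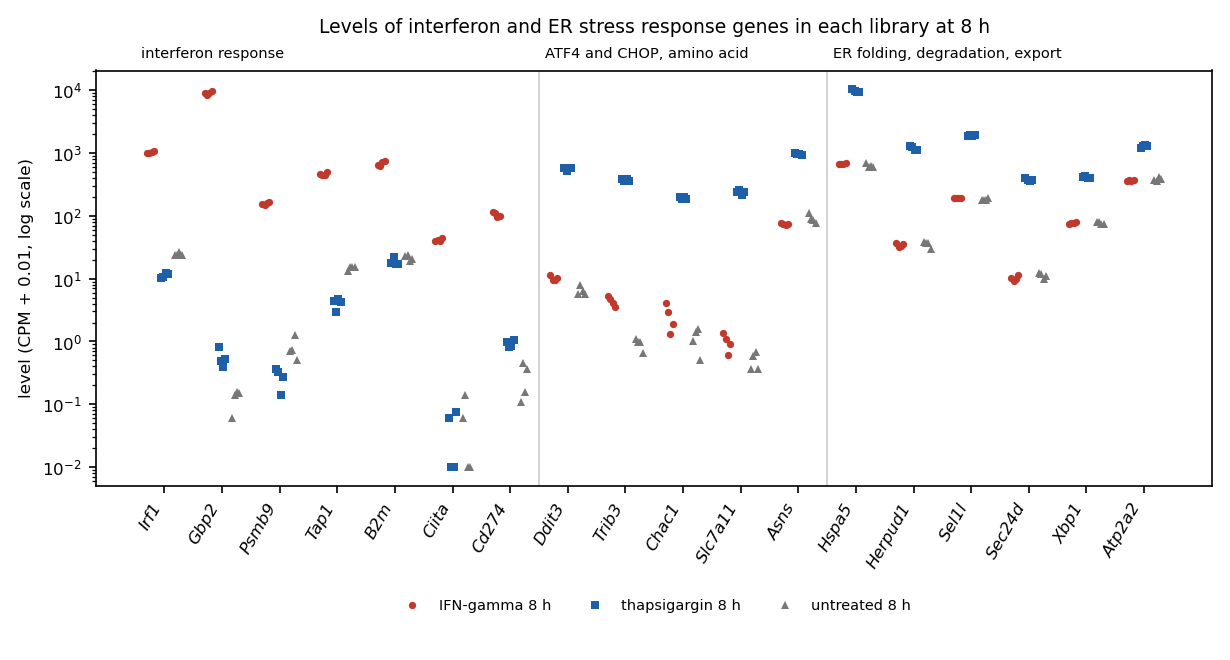
Level in CPM (plus 0.01, log axis) of interferon and ER stress response genes in each library of IFN-gamma (red circles), thapsigargin (blue squares) and untreated cells (grey triangles) at 8 h; levels are not per length, so genes are not to be compared with each other. In the interferon genes the red circles stand above blue squares and grey triangles, and in the ATF4, CHOP and ER genes the blue squares stand above both others.

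The genes downstream of PERK were higher under thapsigargin. Of 16 ATF4 and CHOP stress regulators, 15 passed the filter and all of these were called higher under thapsigargin (median log2 difference -2.92), and thapsigargin raised each of them over untreated cells, while IFN-gamma raised 5 of them. Of the 15, 1 was under the filter's minimum in IFN-gamma libraries. Ddit3, which encodes CHOP, was at 11.2, 9.54, 9.65 and 10.4 CPM under IFN-gamma and 582, 519, 569 and 567 CPM under thapsigargin, with untreated cells at 6.47 ± 1.05 CPM (SD, n = 4). Its thapsigargin libraries were 54.8-fold above the IFN-gamma libraries (log2 difference -5.78 ± 0.16, adjusted p = 1.27e-26), and IFN-gamma stood slightly above untreated cells (log2 0.65 ± 0.15, adjusted p = 0.00134). Atf4 itself was at 185, 169.8, 173 and 168 CPM under IFN-gamma and 1001, 957, 922 and 889.9 CPM under thapsigargin (log2 difference -2.44 ± 0.12, adjusted p = 4.93e-19). Trib3, a CHOP target that restrains AKT, was at 5.36, 4.77, 4.02 and 3.53 CPM under IFN-gamma and 391, 353, 383 and 361 CPM under thapsigargin. Chac1, which degrades glutathione, was at 4.02, 2.92, 1.32 and 1.86 CPM under IFN-gamma and 199.5, 186, 199.8 and 187 CPM under thapsigargin. For both genes the thapsigargin libraries were far above, by 83.8-fold and 76.1-fold, and the IFN-gamma libraries were themselves above untreated cells (log2 2.23 ± 0.38, adjusted p = 2.01e-05 for Trib3 and 1.15 ± 0.36, adjusted p = 0.0163 for Chac1). Ppp1r15a, the GADD34 subunit that dephosphorylates eIF2alpha, was at 9.96, 8.70, 11.6 and 12.5 CPM under IFN-gamma and 227, 218, 219.6 and 209.9 CPM under thapsigargin (log2 difference -4.36 ± 0.10, adjusted p = 2.46e-28).

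Atf3, a stress transcription factor, was raised by both agents. It stood at 13.6, 9.32, 9.70 and 7.19 CPM under IFN-gamma and 67.2, 57.3, 52.9 and 48.8 CPM under thapsigargin, against 0.492 ± 0.133 CPM (SD, n = 4) in untreated cells. IFN-gamma raised it by log2 4.31 ± 0.38 (adjusted p = 1.79e-11) and thapsigargin by log2 6.81 ± 0.37 (adjusted p = 9.86e-18), and the direct difference was -2.50 ± 0.26 (adjusted p = 2.75e-10). Nupr1, a stress-induced nuclear protein, was at 0.699, 0.393, 0.165 and 0.193 CPM under IFN-gamma and 112, 107, 113 and 110.0 CPM under thapsigargin, 298-fold higher under thapsigargin (log2 difference -8.22 ± 0.46, adjusted p = 1.68e-17). The upstream sequences of Chac1, Nupr1 and Slc7a11 are shown because they hold the composite ATF4 and CHOP element TGATGCAA (capitals), on GRCm38.p6 from RefSeq. In Chac1 and Nupr1 the capitals (TTGCATCA) mark the element read on the opposite strand. The stretches lie at chr2:119351029-119351076, plus strand for Chac1, chr7:126625553-126625600, minus strand for Nupr1 and chr3:50443633-50443699, minus strand for the cystine transporter Slc7a11, whose match appears on both strands, and the first match starts 193, 110 and 66 bases before the start, in upstream sequence.

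Chac1: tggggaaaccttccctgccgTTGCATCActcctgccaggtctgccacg
Nupr1: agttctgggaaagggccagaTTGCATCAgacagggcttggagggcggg
Slc7a11: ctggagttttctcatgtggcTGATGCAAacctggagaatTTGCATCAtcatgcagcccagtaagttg

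Genes for amino acid synthesis and transport, many of them known ATF4 targets, were higher under thapsigargin in 20 of 21 (median log2 difference -2.74). Slc7a11 was at 1.34, 1.07, 0.606 and 0.899 CPM under IFN-gamma and 241, 259, 212 and 238 CPM under thapsigargin, with untreated cells at 0.487 ± 0.158 CPM (SD, n = 4), a difference of 242-fold (log2 -7.92 ± 0.31, adjusted p = 4.35e-22). The cationic amino acid transporter Slc7a3 was at 1.75, 0.898, 0.992 and 0.706 CPM under IFN-gamma and 96.02, 96.9, 81.9 and 85.2 CPM under thapsigargin. Cth, which makes cysteine, was at 3.14, 2.81, 2.70 and 1.61 CPM under IFN-gamma and 110.3, 109.6, 110.2 and 95.995 CPM under thapsigargin. Each thapsigargin library of these 3 genes was far above each IFN-gamma library. Asns, asparagine synthetase, was at 76.9, 72.8, 71.4 and 73.9 CPM under IFN-gamma and 995, 957, 969 and 939.9 CPM under thapsigargin (log2 difference -3.71 ± 0.13, adjusted p = 1.52e-23). Pycr1, of proline synthesis, was at 4.72, 4.43, 4.96 and 4.75 CPM under IFN-gamma and 90.7, 82.5, 94.4 and 91.5 CPM under thapsigargin. In each of these the treatments did not overlap and IFN-gamma was not called against untreated cells. Cbs, of transsulfuration, was the member not called (log2 difference 0.041 ± 0.20, adjusted p = 0.876).

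The cytosolic aminoacyl-tRNA synthetases, which charge tRNAs with amino acids, were higher under thapsigargin in 16 of 20 genes. Nars was at 202, 198, 198 and 211 CPM under IFN-gamma and 1201, 1175, 1276 and 1225 CPM under thapsigargin (log2 difference -2.59 ± 0.071, adjusted p = 1.66e-26). Eprs was at 338, 349.6, 338 and 342 CPM under IFN-gamma and 1687, 1745, 1832 and 1772 CPM under thapsigargin (log2 difference -2.36 ± 0.062, adjusted p = 3.99e-27). The exceptions were Wars, Kars and Qars, which were called higher under IFN-gamma, and Farsa, which was not called (log2 difference -0.11 ± 0.064, adjusted p = 0.14). Wars, the tryptophan enzyme and also a known interferon-induced gene, was at 784, 779.7, 897 and 988 CPM under IFN-gamma and 410.2, 389, 454 and 420.2 CPM under thapsigargin, against 118 ± 8.03 CPM (SD, n = 4) in untreated cells. Both treatments raised Wars: IFN-gamma raised it by log2 2.87 ± 0.12 (adjusted p = 9.58e-21), thapsigargin raised it by log2 1.82 ± 0.12 (adjusted p = 8.06e-16), and IFN-gamma stood 2.06-fold above thapsigargin (log2 difference 1.04 ± 0.11, adjusted p = 5.44e-10). Kars was at 354, 329, 351 and 371 CPM under IFN-gamma and 194, 182, 205 and 199.5 CPM under thapsigargin. Qars was at 67.9, 71.4, 69.6 and 82.5 CPM under IFN-gamma and 55.99, 51.6, 56.9 and 52.1 CPM under thapsigargin. Of the 4 eIF2alpha kinases, the ER kinase Eif2ak3 (PERK) was higher under thapsigargin, at 78.9, 76.1, 72.9 and 72.8 CPM under IFN-gamma and 328, 326, 317 and 309 CPM under thapsigargin (log2 difference -2.09 ± 0.055, adjusted p = 5.80e-27). The double-stranded RNA kinase Eif2ak2 (PKR) was higher under IFN-gamma, at 143, 151, 139 and 134 CPM under IFN-gamma and 5.71, 6.14, 4.89 and 5.18 CPM under thapsigargin (log2 difference 4.69 ± 0.11, adjusted p = 4.15e-28), and thapsigargin lowered it against untreated cells (log2 -1.04 ± 0.11, adjusted p = 5.46e-10). Eif2ak1 and Eif2ak4 were not called, with log2 differences of -0.043 (adjusted p = 0.593) and 0.044 (adjusted p = 0.545).

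The ER machinery itself was higher under thapsigargin in all but a few genes. Of 9 genes for the stress sensors and their transcription factors, 8 were called higher under thapsigargin, while Mbtps1, which cleaves ATF6, was higher under IFN-gamma (log2 difference 0.12 ± 0.042, adjusted p = 0.0172), a call lost without thapsigargin replicate 1 (log2 0.10) or 2 (log2 0.083), without IFN-gamma replicate 4 (log2 0.095) and in 6 other fits. Of the 9, 1 was under the filter's minimum in IFN-gamma libraries. Xbp1, the IRE1 substrate, was at 74.99, 76.8, 75.8 and 78.9 CPM under IFN-gamma and 419, 431, 404 and 394 CPM under thapsigargin (log2 difference -2.43 ± 0.087, adjusted p = 3.78e-23). These are totals over spliced and unspliced mRNA, whose share is not analysed here. Atf6 was at 58.2, 56.02, 62.1 and 61.8 CPM under IFN-gamma and 405, 405, 419 and 432 CPM under thapsigargin. Creb3l2, a related membrane-bound factor, was at 5.88, 5.67, 6.06 and 6.68 CPM under IFN-gamma and 79.1, 86.5, 75.4 and 93.8 CPM under thapsigargin. Both were higher under thapsigargin without overlap, by 6.97-fold and 13.8-fold.

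All 22 ER chaperones and disulfide isomerases were called higher under thapsigargin (median log2 difference -2.90), each by at least 2-fold. Hspa5, which encodes the chaperone BiP, was at 672, 665, 667 and 700.1 CPM under IFN-gamma and 10252, 9786, 9483 and 9338 CPM under thapsigargin, with untreated cells at 626 ± 46.01 CPM (SD, n = 4). The thapsigargin libraries were 14.4-fold above the IFN-gamma libraries (log2 difference -3.85 ± 0.075, adjusted p = 1.63e-30), and IFN-gamma was not called against untreated cells (log2 0.11 ± 0.067, adjusted p = 0.246). Creld2 had the widest difference of the list, at 33.7, 31.4, 33.5 and 34.9 CPM under IFN-gamma and 1110.3, 1111, 1035 and 1034 CPM under thapsigargin (log2 difference -5.01 ± 0.11, adjusted p = 8.68e-29). The smallest difference of the list was that of Ppib, an ER prolyl isomerase (log2 difference -1.06 ± 0.065, adjusted p = 2.11e-16). Hyou1, an ER chaperone of the HSP110 family, was at 161, 158, 151 and 173 CPM under IFN-gamma and 3413, 3280.3, 3141 and 3364 CPM under thapsigargin. Sdf2l1, an ER co-chaperone, was at 45.998, 43.7, 51.8 and 47.7 CPM under IFN-gamma and 879, 870.2, 793 and 723 CPM under thapsigargin. Dnajb9, a BiP co-chaperone, was at 14.5, 14.2, 15.8 and 12.3 CPM under IFN-gamma and 170.2, 182, 158 and 156 CPM under thapsigargin. In all of these the lowest thapsigargin library was above the highest IFN-gamma library. The promoters of Hspa5 and of Hsp90b1, which encodes the chaperone GRP94 (log2 difference -3.24 ± 0.077, adjusted p = 2.66e-28), are shown because they hold the ER stress response element (ERSE: CCAAT, 9 bases, CCACG, in capitals). The stretches are at chr2:34772005-34772063, plus strand, and chr10:86705513-86705676, minus strand, on GRCm38.p6 (RefSeq), and the first match starts 65 and 212 bases before the start. Hsp90b1 was chosen after its values were seen, for its 2 matches on opposite strands.

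Hspa5: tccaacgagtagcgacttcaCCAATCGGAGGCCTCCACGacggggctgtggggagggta
Hsp90b1: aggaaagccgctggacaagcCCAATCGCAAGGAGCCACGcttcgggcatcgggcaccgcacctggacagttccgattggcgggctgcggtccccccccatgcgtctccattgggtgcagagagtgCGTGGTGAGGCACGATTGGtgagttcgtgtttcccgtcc

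ER-associated degradation, which removes misfolded proteins, was higher under thapsigargin in 17 of 17 genes (median log2 difference -1.91). Of the 17, 2 were under the filter's minimum in IFN-gamma libraries. Derl3, a Derlin of the retrotranslocation machinery, was at 0.233, 0.281, 0.165 and 0.0642 CPM under IFN-gamma and 95.01, 90.8, 76.99 and 86.2 CPM under thapsigargin, 446-fold higher under thapsigargin (log2 difference -8.80 ± 0.25, adjusted p = 2.70e-26). Herpud1 was at 37.03, 31.5, 32.96 and 35.6 CPM under IFN-gamma and 1304, 1246, 1112 and 1116 CPM under thapsigargin. Sel1l, the partner of the ligase HRD1, was at 188, 194, 189 and 189.5 CPM under IFN-gamma and 1840.2, 1942, 1827 and 1962 CPM under thapsigargin, which are far apart. IFN-gamma was not called against untreated cells in either gene (log2 -0.046 ± 0.12, adjusted p = 0.84 for Herpud1 and 0.044 ± 0.062, adjusted p = 0.663 for Sel1l). Translocation, N-glycosylation and export genes were higher under thapsigargin in 30 of 33 tested and higher under IFN-gamma in 1. Sec24d, a COPII coat subunit, was at 10.1, 9.15, 9.70 and 11.3 CPM under IFN-gamma and 404, 366, 363 and 367 CPM under thapsigargin (log2 difference -5.22 ± 0.11, adjusted p = 2.47e-29). Stt3a, the catalytic subunit of oligosaccharyltransferase, was at 139.7, 134, 139 and 137.7 CPM under IFN-gamma and 672, 722, 734 and 719 CPM under thapsigargin (log2 difference -2.37 ± 0.053, adjusted p = 7.27e-29). The exception was Spcs1, of the signal peptidase, at 103, 91.9, 92.8 and 98.4 CPM under IFN-gamma and 80.96, 74.8, 74.9 and 66.5 CPM under thapsigargin, a small difference without overlap (log2 0.38 ± 0.065, adjusted p = 6.14e-06).

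Calcium store genes were divided, with 9 of 19 (47.4%, against 29.9% of all genes) higher under thapsigargin and 4 (21.1%, against 31.5%) higher under IFN-gamma. Of the 19, 3 were under the filter's minimum in IFN-gamma libraries and 2 in thapsigargin libraries. Atp2a2, the SERCA2 pump that thapsigargin inhibits, was at 352, 364, 355 and 377 CPM under IFN-gamma and 1209, 1287, 1326 and 1287 CPM under thapsigargin (log2 difference -1.82 ± 0.064, adjusted p = 1.81e-23). Atp2a3, which encodes SERCA3, had 5.96, 5.82, 5.66 and 6.43 CPM under thapsigargin and 0, 0, 0 and 0.128 CPM under IFN-gamma, a ratio of reads of 205 (95% interval 56.3 to 1696) in favour of thapsigargin. The plasma membrane pump Atp2b1 was at 116, 124, 124 and 124 CPM under IFN-gamma and 391, 431, 422 and 439.9 CPM under thapsigargin. The release channel Ryr2 was at 1.11, 2.13, 1.38 and 1.28 CPM under IFN-gamma and 13.999, 17.2, 11.8 and 19.1 CPM under thapsigargin. Atp2c1, a pump of the Golgi, was higher under IFN-gamma (log2 difference 0.66 ± 0.046, adjusted p = 1.08e-14). The store-operated channel genes were split, with Orai2 higher under thapsigargin (log2 difference -0.74 ± 0.076, adjusted p = 1.91e-10) and Orai3 not called (log2 difference 0.16 ± 0.20, adjusted p = 0.503). Orai1 was at 17.4, 16.2, 15.8 and 16.2 CPM under IFN-gamma and 11.4, 11.05, 9.72 and 10.8 CPM under thapsigargin. The store calcium sensor Stim2 was at 54.03, 54.5, 56.9 and 53.8 CPM under IFN-gamma and 36.2, 37.9, 40.2 and 37.2 CPM under thapsigargin, both higher under IFN-gamma (log2 differences 0.61 and 0.53), and both were below untreated cells under each treatment.

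Cell death and growth factor genes gave a few wide differences. Hrk, a BH3-only death gene, was at 0.932, 1.01, 0.772 and 0.835 CPM under IFN-gamma and 41.04, 38.2, 40.6 and 38.7 CPM under thapsigargin (log2 difference -5.47 ± 0.25, adjusted p = 7.98e-20), the largest difference among the 13 BCL2 family genes tested. Bid, another BH3-only gene, went the other way, at 11.01, 12.2, 11.2 and 11.8 CPM under IFN-gamma and 3.84, 3.95, 5.09 and 3.61 CPM under thapsigargin (log2 difference 1.49 ± 0.13, adjusted p = 1.28e-12). Of 11 tested secreted factors, 6 were higher under thapsigargin. Of the 11, 6 were under the filter's minimum in IFN-gamma libraries and 4 in thapsigargin libraries. Vegfa was at 5.94, 4.83, 3.09 and 2.38 CPM under IFN-gamma and 361, 368, 305 and 346 CPM under thapsigargin, 84.6-fold higher under thapsigargin (log2 difference -6.40 ± 0.41, adjusted p = 6.99e-16). Fgf21, a stress hormone and ATF4 target, had 9.20, 6.14, 4.31 and 4.59 CPM under thapsigargin and 0 reads under IFN-gamma (at least 143-fold higher). Gdf15, another stress hormone, was was at 0.0582, 0.0561, 0.110 and 0.128 CPM under IFN-gamma and 9.25, 9.50, 3.86 and 3.74 CPM under thapsigargin. Stc2, a stanniocalcin, was at 5.41, 3.65, 3.91 and 2.76 CPM under IFN-gamma and 89.95, 87.05, 96.04 and 91.3 CPM under thapsigargin. In each of these 4 factors every thapsigargin library was above every IFN-gamma library.

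Of 11 oxidative stress targets of NRF2, 5 (45.5%, against 29.9% of all genes) were higher under thapsigargin and 3 (27.3%, against 31.5%) higher under IFN-gamma. Hmox1, heme oxygenase, was at 19.4, 18.4, 22.4 and 22.8 CPM under IFN-gamma and 85.7, 81.9, 91.4 and 92.8 CPM under thapsigargin (log2 difference -2.08 ± 0.11, adjusted p = 6.00e-18), whereas Txnrd1, thioredoxin reductase, was at 614, 574, 609 and 591 CPM under IFN-gamma and 339, 342, 329 and 321 CPM under thapsigargin (log2 difference 0.84 ± 0.082, adjusted p = 4.44e-11). The autophagy receptor Sqstm1 was at 139, 129.7, 143 and 137.8 CPM under IFN-gamma and 343, 359.6, 352 and 331 CPM under thapsigargin (log2 difference -1.34 ± 0.10, adjusted p = 1.32e-13), and 8 of 14 autophagy genes were higher under thapsigargin. Cytosolic heat shock genes, which answer misfolding outside the ER, showed 6 of 13 tested higher under IFN-gamma and 1 higher under thapsigargin. Hspa8, the constitutive cytosolic HSC70, was at 2632, 2562, 2725 and 2887 CPM under IFN-gamma and 612, 605, 747 and 669 CPM under thapsigargin, with untreated cells at 2753 ± 159 CPM (SD, n = 4). Thapsigargin lowered Hspa8 against untreated cells (log2 -2.06 ± 0.075, adjusted p = 9.33e-23) and IFN-gamma did not change it past the threshold (log2 -0.028 ± 0.072, adjusted p = 0.836), so that the treatments differed by 4.10-fold. Its co-chaperone Dnaja1 was at 335, 347, 353 and 341 CPM under IFN-gamma and 167, 186, 177 and 168 CPM under thapsigargin (log2 difference 0.98 ± 0.072, adjusted p = 4.04e-14). The inducible genes Hspa1a and Hspa1b were not called (log2 differences 0.55, adjusted p = 0.24, and 0.41, adjusted p = 0.261).

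**Figure D3:**
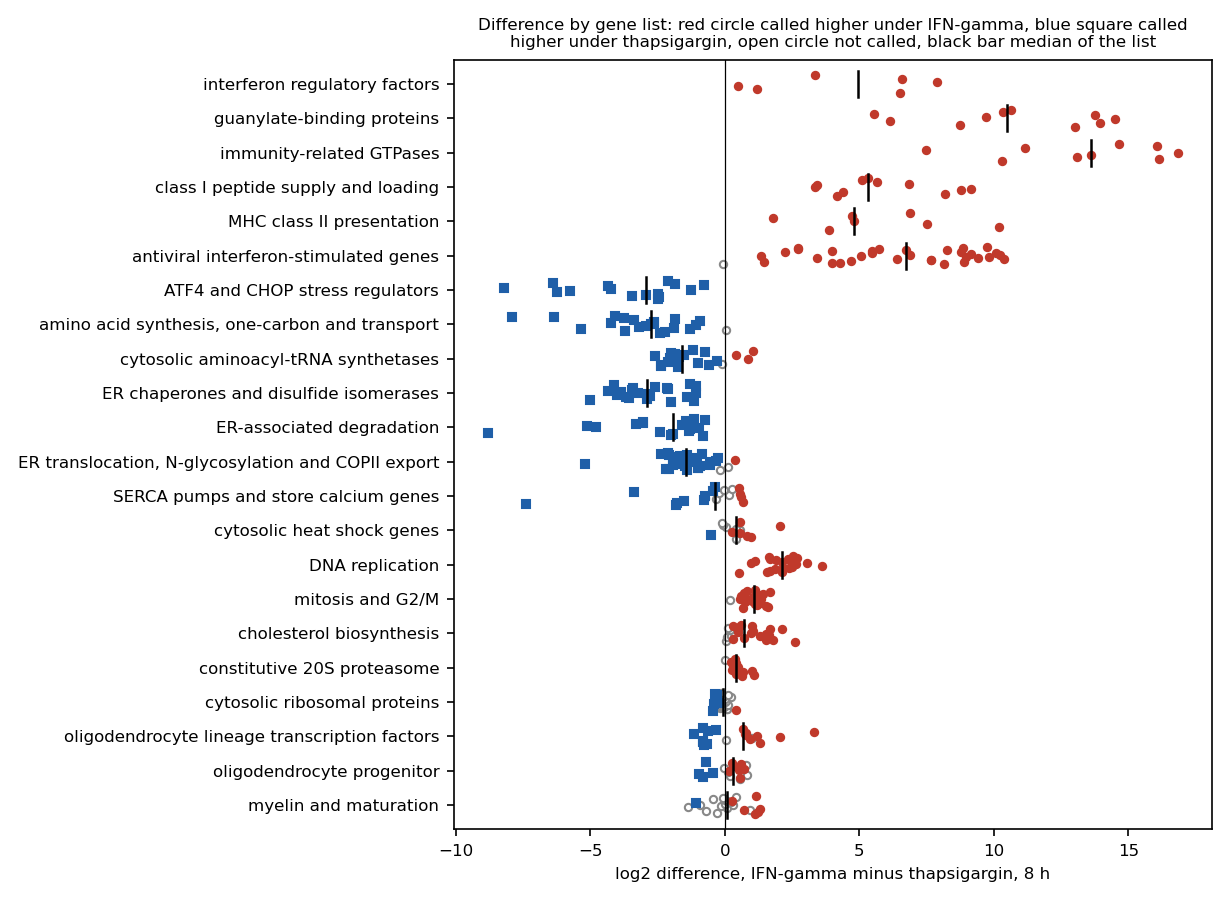
Log2 difference, IFN-gamma minus thapsigargin at 8 h, of each tested gene by list; red circles were called higher under IFN-gamma, blue squares were called higher under thapsigargin, open circles were not called, and black bars are list medians. Interferon lists lie to the right of 0 and ER stress and amino acid lists to the left, while DNA replication, mitosis and cholesterol genes lie to the right with smaller differences.

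Cell cycle genes were lower under thapsigargin than under IFN-gamma. All 22 DNA replication genes were called higher under IFN-gamma (median log2 difference 2.14), and thapsigargin lowered all 22 against untreated cells. Mcm3, a subunit of the replicative helicase, was at 119, 106, 122 and 124 CPM under IFN-gamma and 11.5, 10.4, 8.50 and 8.33 CPM under thapsigargin, with untreated cells at 138.1 ± 24.98 CPM (SD, n = 4). The thapsigargin libraries were the low ones (log2 difference 3.60 ± 0.30, adjusted p = 1.38e-12), and IFN-gamma was not called against untreated cells (log2 -0.23 ± 0.26, adjusted p = 0.584). Mcm6 was at 209, 196, 217 and 206 CPM under IFN-gamma and 26.3, 24.3, 25.2 and 23.2 CPM under thapsigargin. Rrm2, which supplies deoxynucleotides, was at 217, 199.8, 212 and 199 CPM under IFN-gamma and 34.2, 38.7, 27.4 and 28.1 CPM under thapsigargin. The thapsigargin libraries were below all others of 8 h in each of these genes. In bulk RNA, fewer cells of a kind and less RNA per cell cannot be told apart, here and for every lineage gene below. Mitosis genes were higher under IFN-gamma in 19 of 20 (median log2 difference 1.08), a count of 10 in the lower 20 library numbers alone. Top2a was at 1489, 1478, 1517 and 1398 CPM under IFN-gamma and 529, 509, 388 and 416 CPM under thapsigargin (log2 difference 1.67 ± 0.21, adjusted p = 1.17e-08), and Cdc20 was not called (log2 difference 0.18 ± 0.21, adjusted p = 0.475). Among the regulators of G1, 8 of 15 (53.3%) were higher under IFN-gamma and 3 (20%) higher under thapsigargin, against 31.5% and 29.9% of all genes. The cyclin gene Ccne1 was at 28.01, 25.04, 29.3 and 29.9 CPM under IFN-gamma and 8.14, 6.83, 9.66 and 8.53 CPM under thapsigargin. Its relative Ccne2 was at 37.7, 37.5, 46.03 and 46.2 CPM under IFN-gamma and 6.92, 7.74, 8.05 and 7.81 CPM under thapsigargin. The inhibitor Cdkn1b went the other way, at 207, 214, 219.7 and 194 CPM under IFN-gamma and 365, 389, 335 and 329 CPM under thapsigargin (log2 difference -0.76 ± 0.081, adjusted p = 3.02e-10). Both treatments raised Cdkn1b over untreated cells (131 ± 7.32 CPM, SD, n = 4).

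Cholesterol synthesis, which supplies the lipid of myelin, was higher under IFN-gamma in 17 of 23 tested genes (median log2 difference 0.71). Thapsigargin lowered 17 of them against untreated cells, and IFN-gamma raised 1 and lowered 1. Acat2, which joins acetyl-CoA units at the start of the pathway, was at 436, 364, 329 and 359 CPM under IFN-gamma and 75.96, 64.5, 51.6 and 54.5 CPM under thapsigargin, with untreated cells at 385 ± 61.03 CPM (SD, n = 4), so that thapsigargin stood apart (log2 difference 2.59 ± 0.15, adjusted p = 6.02e-17). Nsdhl, a sterol dehydrogenase, was at 137, 118, 97.7 and 108 CPM under IFN-gamma and 32.8, 31.01, 19.5 and 22.05 CPM under thapsigargin. Hmgcs1, an early enzyme of the pathway, was at 2608, 2423, 2075 and 2116 CPM under IFN-gamma and 1158, 1069, 717 and 748 CPM under thapsigargin. The treatments did not overlap in these genes, and thapsigargin replicates 1 and 2, which have the lower library numbers, were above replicates 3 and 4 in each. The constitutive proteasome showed small differences: 13 of 14 genes were higher under IFN-gamma, led by Psma2 at 239, 227, 232 and 246 CPM under IFN-gamma and 112, 108, 118 and 104 CPM under thapsigargin (log2 difference 1.09 ± 0.079, adjusted p = 2.18e-14), a count of 8 without the 3 libraries of low Y-linked level. Ribosomal protein genes differed little, with 1 higher and 6 lower under IFN-gamma of 27 (11 lower in a fit of only the compared groups) and a median log2 difference of -0.067. In glycolysis Hk2 was higher under thapsigargin, at 44.02, 49.01, 47.3 and 47.01 CPM under IFN-gamma and 132, 139, 157 and 147 CPM under thapsigargin (log2 difference -1.61 ± 0.14, adjusted p = 2.85e-12), while 10 of 16 glycolysis genes, Pkm and Tpi1 among them, were higher under IFN-gamma (log2 differences 0.82 and 0.99).

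The transcription factors of the oligodendrocyte lineage were divided. Of 19, 9 (47.4%) were higher under IFN-gamma and 8 (42.1%) higher under thapsigargin, against 31.5% and 29.9% of all genes. The count higher under thapsigargin was 5 in the lower 20 library numbers alone. Olig1, which with Olig2 specifies the lineage, was at 1373, 1324, 1455 and 1063 CPM under IFN-gamma and 326, 354, 308 and 261 CPM under thapsigargin. Olig2 was at 815, 786, 848 and 693 CPM under IFN-gamma and 345, 389, 349.6 and 308 CPM under thapsigargin. Both were higher under IFN-gamma (log2 differences 2.06 ± 0.18, adjusted p = 2.02e-12, and 1.18 ± 0.13, adjusted p = 8.86e-10), and thapsigargin lowered both against untreated cells (log2 -1.95 ± 0.18, adjusted p = 9.33e-12, and -1.23 ± 0.13, adjusted p = 3.73e-10). Sox10, which drives myelin genes, was at 567, 532, 619 and 623 CPM under IFN-gamma and 291, 316, 391.8 and 375 CPM under thapsigargin (log2 difference 0.77 ± 0.12, adjusted p = 9.54e-07). Sox9, a glial progenitor factor, was at 121, 119, 119 and 94.5 CPM under IFN-gamma and 13.4, 14.997, 9.08 and 7.41 CPM under thapsigargin (log2 difference 3.32 ± 0.42, adjusted p = 1.42e-08). IFN-gamma was not called against untreated cells in any of these genes. Sox4, a factor of immature cells, was higher under thapsigargin, at 294, 312, 297 and 252 CPM under IFN-gamma and 628, 773, 593 and 601 CPM under thapsigargin (log2 difference -1.17 ± 0.15, adjusted p = 3.64e-08), as was Id2, an inhibitor of differentiation, at 86.2, 78.5, 86.6 and 75.1 CPM under IFN-gamma and 150.2, 158, 139.8 and 125 CPM under thapsigargin. Myrf, the master factor of myelination, overlapped between treatments, at 23.6, 33.6, 29.2 and 37.5 CPM under IFN-gamma and 19.2, 25.99, 37.7 and 37.7 CPM under thapsigargin, and was not called (log2 difference 0.044 ± 0.30, adjusted p = 0.912), and both treatments were below untreated cells (log2 -1.14 ± 0.30, adjusted p = 0.00427, and -1.18 ± 0.30, adjusted p = 0.00103).

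Progenitor genes showed small log2 differences, from -0.97 (Gpr37) to 0.83 (Emid1, not called). Of 18, 7 (38.9%) were higher and 4 (22.2%) lower under IFN-gamma, against 31.5% and 29.9% of all genes. The count of higher genes was 3 in the upper 20 library numbers alone. Gpr37 kept its call in 8 of 19 alternatives and lost it without any of IFN-gamma replicates 1, 2 or 3 or thapsigargin replicates 3 or 4 (adjusted p up to 0.183). Pdgfra, the receptor for the progenitor mitogen, was at 1371, 1508, 1391 and 1494 CPM under IFN-gamma and 955, 974.9, 1072 and 1045 CPM under thapsigargin, with untreated cells at 2648 ± 48.8 CPM (SD, n = 4). Both treatments lowered it (log2 -0.88 ± 0.17, adjusted p = 1.46e-04 under IFN-gamma and -1.39 ± 0.17, adjusted p = 1.71e-08 under thapsigargin), and the direct difference of 0.51 ± 0.17 (adjusted p = 0.0103) was not called in either set of 20 library numbers alone or without the 3 libraries of low Y-linked level (log2 0.54, adjusted p = 0.0513). Cspg4, the NG2 proteoglycan, was lower under IFN-gamma, at 325, 366, 369 and 381 CPM under IFN-gamma and 658, 599, 614 and 666 CPM under thapsigargin (log2 difference -0.82 ± 0.18, adjusted p = 2.13e-04), and thapsigargin was not called against untreated cells (634 ± 25.4 CPM, SD, n = 4). Gpr17, of differentiation-committed progenitors, was not called between treatments (log2 difference -0.043 ± 0.35, adjusted p = 0.924) and below untreated cells in both (log2 -2.03 ± 0.36, adjusted p = 3.16e-05, and -1.98 ± 0.36, adjusted p = 1.16e-05).

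Myelin genes were mostly not called: 6 of 22 tested (27.3%, against 31.5% of all genes) were higher under IFN-gamma and 1 (4.55%, against 29.9%) higher under thapsigargin, the first a count of 3 in the lower 20 library numbers alone. The second was 0 without IFN-gamma replicate 2 or 4 or thapsigargin replicate 4. It was also 0 without the libraries rich in rRNA-like reads or of low Y-linked level and in the lower 20 alone. It was 2 without IFN-gamma replicate 3, with DESeq2 or with a block by library number, and 3 with the estimated transcript counts or only the groups compared. Mbp, myelin basic protein, was at 21.6, 18.4, 49.1 and 54.8 CPM under IFN-gamma and 17.8, 26.3, 65.3 and 49.3 CPM under thapsigargin, and its libraries overlapped (log2 difference -0.14 ± 0.59, adjusted p = 0.855). Replicates 3 and 4, which have the higher library numbers, were above replicates 1 and 2 in both treatments for Mbp, Cnp and Ugt8a. Cnp, a myelin phosphodiesterase, was at 374, 408, 484 and 559 CPM under IFN-gamma and 135, 146, 276 and 218 CPM under thapsigargin. Ugt8a, which makes galactocerebroside, was at 153, 149, 186 and 203 CPM under IFN-gamma and 48.01, 59.1, 114 and 88.9 CPM under thapsigargin. Both were higher under IFN-gamma without overlap (log2 differences 1.24 ± 0.29, adjusted p = 3.93e-04, and 1.16 ± 0.32, adjusted p = 0.00202), and thapsigargin lowered both against untreated cells (log2 -1.72 ± 0.29, adjusted p = 5.40e-06, and -2.04 ± 0.33, adjusted p = 1.56e-06). Gjb1, the gap junction gene of myelinating cells, was at 3.38, 3.71, 5.02 and 5.20 CPM under IFN-gamma and 1.62, 1.33, 1.80 and 2.23 CPM under thapsigargin (log2 difference 1.32 ± 0.22, adjusted p = 3.01e-06). Of 12 premyelinating genes, 3 (25%) were called higher and 1 (8.33%) lower under IFN-gamma (median log2 difference -0.17), against 31.5% and 29.9% of all genes. The count of higher genes was 5 with DESeq2 or only the groups compared. That of lower genes was 3 with only the groups compared and 0 in the lower 20 library numbers alone or without the libraries of low Y-linked level. The lower one was Fyn, a kinase of early myelination (log2 difference -0.40 ± 0.14, adjusted p = 0.0145). Bcas1 was at 619, 664, 853 and 861 CPM under IFN-gamma and 310.1, 332, 489 and 394 CPM under thapsigargin. Tcf7l2 was at 14.7, 18.5, 12.7 and 15.5 CPM under IFN-gamma and 4.599, 5.71, 7.27 and 7.15 CPM under thapsigargin, each higher under IFN-gamma (log2 differences 0.97 ± 0.26, adjusted p = 0.00151, and 1.32 ± 0.28, adjusted p = 1.15e-04).

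**Figure D4:**
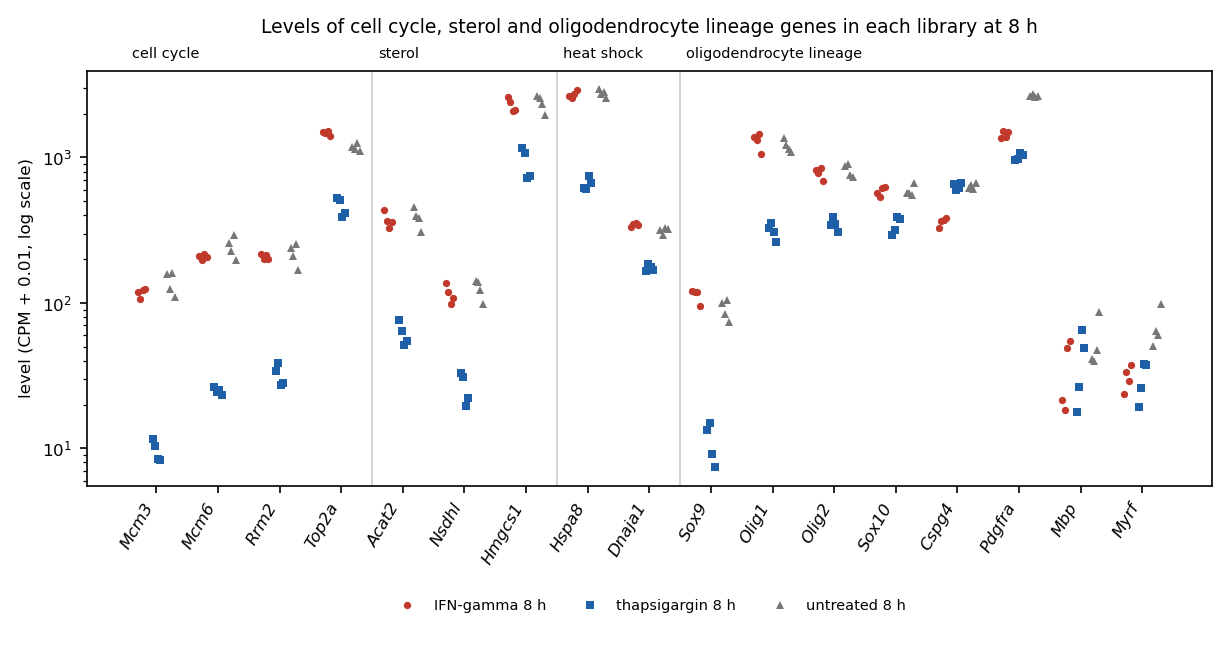
Level in CPM (plus 0.01, log axis) of cell cycle, sterol, heat shock and oligodendrocyte lineage genes in each library of IFN-gamma (red circles), thapsigargin (blue squares) and untreated cells (grey triangles) at 8 h; levels are not per length. The thapsigargin libraries lie below the others from Mcm3 to Sox10, Cspg4 is lower under IFN-gamma, Pdgfra is highest in untreated cells, and Mbp and Myrf overlap between treatments.

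Immediate early genes, rapidly and briefly induced by many stimuli, were called at 35% in each direction, near the 31.5% and 29.9% of all genes. Of 20, 7 were higher and 7 lower under IFN-gamma, the latter a count of 4 in the upper 20 library numbers alone. Egr2, a zinc finger factor, was at 51.3, 48.5, 54.1 and 59.9 CPM under IFN-gamma and 0.910, 1.17, 0.451 and 0.722 CPM under thapsigargin, with untreated cells between them at 9.66 ± 2.86 CPM (SD, n = 4) (log2 difference 5.99 ± 0.34, adjusted p = 2.98e-17). IFN-gamma raised Egr2 (log2 2.48 ± 0.25, adjusted p = 7.05e-10) and thapsigargin lowered it (log2 -3.52 ± 0.36, adjusted p = 2.49e-10). Jun was at 422, 416, 458 and 355 CPM under IFN-gamma and 109.6, 113, 82.3 and 76.3 CPM under thapsigargin (log2 difference 2.12 ± 0.17, adjusted p = 3.07e-13), whereas the next genes were higher under thapsigargin. Klf4, a zinc finger factor, was at 4.77, 4.94, 4.02 and 3.21 CPM under IFN-gamma and 25.98, 24.7, 16.6 and 19.6 CPM under thapsigargin. Dusp1, a MAP kinase phosphatase, was at 6.06, 7.47, 6.01 and 6.42 CPM under IFN-gamma and 26.8, 29.8, 22.3 and 23.8 CPM under thapsigargin. Neither overlapped between treatments. Of 12 NF-kappaB subunit and feedback genes, 3 (25%) were called higher and 5 (41.7%) lower under IFN-gamma, against 31.5% and 29.9% of all genes. The subunits Relb and Rela were higher under thapsigargin (log2 differences -1.19 ± 0.15, adjusted p = 2.23e-08, and -0.51 ± 0.086, adjusted p = 3.61e-06). Feedback genes went both ways. Tnfaip3, Bcl3 and Tnip1 were higher under IFN-gamma and Nfkbib was lower (log2 difference -0.50 ± 0.17, adjusted p = 0.00996). The inhibitor genes Nfkbia, Nfkbie and Nfkbiz were not called. Tnfaip3, which encodes A20, was at 33.2, 32.5, 25.9 and 27.5 CPM under IFN-gamma and 1.21, 1.07, 1.48 and 1.51 CPM under thapsigargin. Bcl3, an atypical inhibitor gene, was at 23.6, 23.6, 23.4 and 22.03 CPM under IFN-gamma and 3.99, 4.11, 4.31 and 4.20 CPM under thapsigargin. Both were higher under IFN-gamma without overlap. Clock genes were higher under thapsigargin in 9 of 15, with Per1 at 10.9, 11.7, 11.02 and 12.8 CPM under IFN-gamma and 51.04, 49.95, 41.4 and 49.7 CPM under thapsigargin (log2 difference -2.05 ± 0.11, adjusted p = 1.32e-18). Cry2 was at 8.73, 12.4, 10.4 and 10.5 CPM under IFN-gamma and 40.3, 34.3, 31.99 and 32.5 CPM under thapsigargin (log2 difference -1.73 ± 0.11, adjusted p = 4.03e-16). Against untreated cells, IFN-gamma raised 1 and lowered 9 of the 15 clock genes, and thapsigargin raised 5 and lowered 5.

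Markers of other cell types were present at uneven levels. Their called counts are to be read against the 31.5% higher and 29.9% lower under IFN-gamma of all genes tested. The summed level of the 10 astrocyte markers was 466 to 517 CPM in the IFN-gamma libraries and 234 to 269.6 CPM in the thapsigargin libraries, with 3 of 9 tested called higher under IFN-gamma. The summed level of the 10 microglial and macrophage markers was 24.2 to 27.1 CPM in the IFN-gamma libraries and 17.4 to 18.4 CPM in the thapsigargin libraries, with 2 of 3 tested called higher under IFN-gamma. The summed level of the 10 neuronal markers was 936 to 1399 CPM in the IFN-gamma libraries and 1052 to 1144 CPM in the thapsigargin libraries, with 2 of 8 tested called higher under IFN-gamma and 2 lower. The summed level of the 10 endothelial and mural markers was 13.2 to 14.1 CPM in the IFN-gamma libraries and 6.89 to 9.80 CPM in the thapsigargin libraries, with 1 of 5 tested called higher under IFN-gamma and 3 lower, the latter a count of 1 in the upper 20 library numbers alone or with the estimated transcript counts. The summed level of the 9 fibroblast and meningeal markers was 14.0 to 20.1 CPM in the IFN-gamma libraries and 11.1 to 16.8 CPM in the thapsigargin libraries, with 1 of 3 tested called higher under IFN-gamma. The astrocyte sum is carried by Slc1a3 and Aldoc, and the neuronal sum by Map2 and Tubb3. Among defining markers, Gjb6, Aif1, Csf1r, Cldn5, Cdh5 and Dpt had 0 reads in the IFN-gamma libraries, and Itgam, Slc17a6 and Cldn5 had 0 reads in the thapsigargin libraries. Gad1, the GABA-synthesizing enzyme, was higher under thapsigargin, at 0.582, 0.730, 0.386 and 0.450 CPM under IFN-gamma and 16.7, 14.9, 8.95 and 10.2 CPM under thapsigargin, as was Snap25, a synaptic protein, at 5.88, 6.29, 5.18 and 5.46 CPM under IFN-gamma and 28.05, 26.8, 24.01 and 24.999 CPM under thapsigargin. Tubb3 was raised by both treatments, to 273, 263, 318 and 322 CPM under IFN-gamma and 156, 136, 149 and 144 CPM under thapsigargin from 47.5 ± 5.81 CPM (SD, n = 4). The smooth muscle actin gene Acta2 reached 8.79, 8.59, 9.15 and 10.2 CPM under IFN-gamma against 0.101, 0, 0.0644 and 0 CPM, and the proteoglycan gene Lum reached 3.67, 5.22, 5.24 and 5.14 CPM against 0.152, 0, 0 and 0.0656 CPM, while the collagen genes Col1a1, Col1a2 and Col3a1 and the mural gene Vtn were at most 0.321 CPM in each treated library. The part of these markers in the differences above was not tested.

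The same contrast at 1 h rests on 8 other libraries and was much narrower, with 261 genes (1.72% of those tested) higher under IFN-gamma and 660 (4.36%) higher under thapsigargin, 921 in all against 193 in the lower 20 library numbers alone. At 1 h the summed Y-linked level was 274, 6.93, 0.734 and 290.3 CPM in the IFN-gamma libraries and 287, 29.6, 316 and 212 CPM in the thapsigargin libraries. Reads on rRNA-like genes made up 28.3% of IFN-gamma replicate 2 and 7.41% of thapsigargin replicate 1, against at most 3.58% of the others. Without the 3 libraries of low Y-linked level 526 genes were called at 1 h, and without the 2 rich in rRNA-like reads 758 were. The change of the difference between the times was called in 7310 genes, of which 3807 (25.2%) moved toward IFN-gamma and 3503 (23.1%) toward thapsigargin by 8 h. That count was 5423 without the 6 libraries of low Y-linked level and 6305 without the 4 rich in rRNA-like reads at either time. Low and high Y-linked levels recurred among the libraries of both times. The labels do not state whether the times share cell preparations. The test treats the libraries as independent. Of the 691 genes called at both times, which make up 75% of the early calls and 7.44% of the late ones, 558 kept their direction and 133 had the opposite one. Irf1 was already different at 1 h, at 543, 427, 834 and 725 CPM under IFN-gamma and 35.5, 29.1, 32.3 and 35.7 CPM under thapsigargin (log2 difference 4.25 ± 0.13, adjusted p = 1.53e-23), and the difference grew by log2 2.25 ± 0.16 (adjusted p = 7.85e-14). Irf8 and Socs1 also differed at 1 h (log2 differences 4.42 ± 0.21, adjusted p = 1.37e-17, and 3.69 ± 0.44, adjusted p = 1.40e-07), whereas Gbp9 did not pass the test at 1 h (log2 difference 0.38 ± 0.65, adjusted p = 0.871) and was 1609-fold apart at 8 h. Ddit3 was higher under thapsigargin from 1 h, at 28.8, 24.04, 31.9 and 45.7 CPM under thapsigargin and 5.02, 4.25, 5.61 and 5.598 CPM under IFN-gamma (log2 difference -2.66 ± 0.15, adjusted p = 1.10e-15), and widened by log2 -3.11 ± 0.20 (adjusted p = 4.41e-15). Hspa5 was higher under thapsigargin at 1 h already (log2 difference -0.63 ± 0.067, adjusted p = 1.61e-08), while Slc7a11 and Nupr1 were not called at 1 h (log2 differences 0.24 ± 0.46, adjusted p = 0.892, and 0.19 ± 1.35, adjusted p = 0.978) and then opened to the differences given above, a change of log2 -8.16 ± 0.62 (adjusted p = 2.31e-13), and -8.41 ± 1.96 (adjusted p = 5.20e-04). Cish, a JAK and STAT feedback gene, Per1 and Atf3 had a difference called at both times, with changes of log2 -0.34 ± 0.20 (adjusted p = 0.164), 0.10 ± 0.15 (adjusted p = 0.596), and -0.44 ± 0.43 (adjusted p = 0.417), none of which was called.

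Of the 133 genes with opposite calls, 117 were lower under IFN-gamma at 1 h and higher at 8 h, and 16 the reverse, and the change was called in all 133. Tnfaip3 was at 8.09, 9.06, 8.85 and 10.2 CPM under IFN-gamma and 14.7, 14.1, 12.6 and 16.4 CPM under thapsigargin at 1 h (log2 difference -0.67 ± 0.20, adjusted p = 0.0375), against a log2 difference of 4.51 at 8 h (change 5.18 ± 0.33, adjusted p = 1.31e-15). Egr1, an immediate early gene, was at 78.4, 87.8, 44.3 and 78.6 CPM and 189.8, 202, 242 and 208 CPM at 1 h (log2 difference -1.54 ± 0.33, adjusted p = 0.00156) and at 22.1, 21.6, 18.5 and 20.2 CPM under IFN-gamma and 4.50, 3.84, 2.19 and 3.15 CPM under thapsigargin at 8 h (log2 difference 2.57 ± 0.40, adjusted p = 1.01e-06). In both genes every thapsigargin library was above every IFN-gamma library at 1 h and below every IFN-gamma library at 8 h. Cholesterol genes moved in the same sense: 10 of 23 were called lower under IFN-gamma at 1 h, 17 were higher at 8 h, and the change was called in 21. Mcm3 was not called at 1 h (log2 difference 0.24 ± 0.26, adjusted p = 0.765), and over the DNA replication list the change by 8 h was called in 21 of 22.

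**Figure D5:**
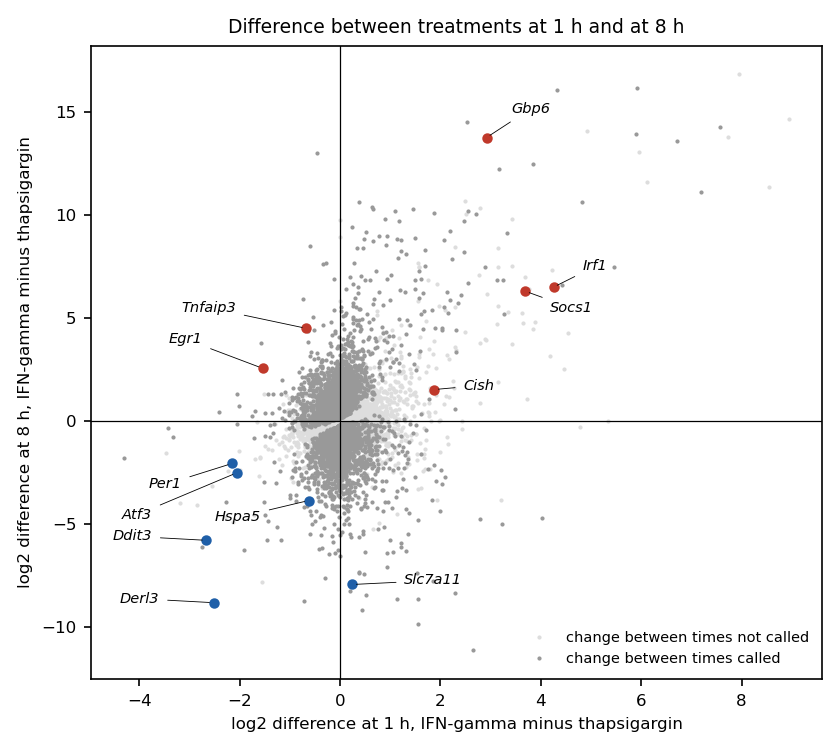
Each point is a gene, with its log2 difference (IFN-gamma minus thapsigargin) at 1 h on the x axis and at 8 h on the y axis; dark points had a called change between the times, and named genes are red or blue by their direction at 8 h. Irf1 and Socs1 lie to the upper right and Ddit3 to the lower left, Slc7a11 and Hspa5 lie low near 0 on the x axis, and Tnfaip3 and Egr1 lie in the upper left, with opposite directions at 1 h and 8 h.

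The motifs shown above were counted on both strands in the 250 bases before each annotated start of the 10958 tested genes that matched a RefSeq promoter by symbol. A GAS motif (TTCNNNGAA) was found in 7.06% of all of these, in 13.9% of the 201 matched genes that were at least 8-fold higher under IFN-gamma and in 5.59% of the 161 that were at least 8-fold higher under thapsigargin. The ISRE core (GAAANNGAA) was found in 7.25%, 26.4% and 6.83% of the same sets, and the ATF4 and CHOP element in 0.63%, 0.498% and 7.45%. ERSE was rare, in 0.164% of all promoters, 0% of the first set and 3.73% of the second, but it was found in 7 of the 17 matched chaperone and disulfide isomerase genes. By list, the ISRE core was in 4 of 4 matched GBP genes, 6 of 7 IRG genes and 10 of 25 antiviral genes. In other interferon lists it was in 3 of 9 class I chain genes, 1 of 8 class I peptide supply genes and 0 of 4 class II genes. It was in 0 of 8 pyroptosis and necroptosis genes and 0 of 3 complement genes. Outside the interferon lists, it was in 4 of 16 immediate early, 3 of 18 ribosomal protein and 0 of 18 DNA replication genes. The ATF4 and CHOP element was in 4 of 13 ATF4 and CHOP regulators. The planned sets were all matched genes called higher under IFN-gamma or under thapsigargin, whatever the fold. In these, GAS was found in 7.5% and 7.09% and the ISRE core in 7.89% and 6.41%, near the shares of all promoters. The ATF4 and CHOP element was found there in 0.336% and 1.34%, and ERSE in 0% and 0.429%. In 18 genes a GAS match overlapped an ISRE core match. These shares describe letters in a window and do not locate bound factors.

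Outside the lists, the rule of largest differences named genes with few or no reads under IFN-gamma. Cass4, an adhesion scaffold gene, had 14.3, 13.4, 15.6 and 16.1 CPM under thapsigargin and 0 reads in every IFN-gamma and untreated library of 8 h (at least 338-fold higher than under IFN-gamma). Trim66, a TRIM family gene, was at 1.34, 1.18, 0.772 and 0.578 CPM under IFN-gamma and 164, 171, 137 and 167 CPM under thapsigargin, 163-fold higher under thapsigargin (log2 difference -7.35 ± 0.24, adjusted p = 3.07e-24). Tspan18, a tetraspanin gene, was at 0, 0.0561, 0 and 0.0642 CPM under IFN-gamma and 11.9, 14.7, 11.5 and 11.9 CPM under thapsigargin, a ratio of reads of 433 (95% interval 119 to 3579) in favour of thapsigargin, with untreated cells between at 0.519 ± 0.286 CPM (SD, n = 4). Cox6a2, a muscle form of a cytochrome oxidase subunit, was at 0, 0.168, 0 and 0 CPM under IFN-gamma and 13.8, 10.5, 9.46 and 9.58 CPM under thapsigargin, a ratio of 252 (95% interval 85.95 to 1225). Apobr, a lipoprotein receptor, was at 0.175, 0, 0 and 0.128 CPM under IFN-gamma and 6.17, 7.63, 6.95 and 5.38 CPM under thapsigargin. No thapsigargin library of these genes overlapped an IFN-gamma library.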

How the data were processed

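RNA sequencing of mouse developing oligodendrocytes gave 40 libraries in 10 groups of 4. The authors deposited read counts per gene (39056 identifiers, 38872 matched to a symbol) and estimated counts per transcript (112588 transcripts). Per the submitters' processing notes, STAR, featureCounts, kallisto and edgeR were used, with no versions or roles. Genome build: not given in the sources used here. Nor is it stated whether counting used strand, so reads of overlapping antisense genes cannot be told apart.

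Gene counts were fitted with edgeR 4.0.16 in R 4.3.3 (TMM, filterByExpr, 10 group means over 40 libraries, 30 residual degrees of freedom, quasi-likelihood F test, Benjamini-Hochberg adjustment over 15135 genes). CPM are not per length, so genes are not compared by level. The standard error of a log2 difference is its size over the square root of F. Bounds use a floor of 3 reads over the group where it held 0, and ratios for 1 to 3 reads have exact binomial 95% intervals. No pair of replicates agreed within sampling noise (lowest chi-square 9.23 per degree of freedom), so none was counted as a duplicate. The fit was run on simulated counts with the same dispersion in every gene and few changed genes. There it called 44% of 1.5-fold and 90% of 2-fold changes, and 4.57% of its calls were false. Such rates were not measured for data with as many differences as these.

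Named genes were the 12 largest called differences in each direction with at least 2 CPM and no overlap, up to 4 called members in each direction of each of 49 lists, a set list of pathway genes, and the 6 largest changes between times in each direction. Some genes covered by this rule are not reported here. Members and lists were chosen with earlier results of these data known. List members that were not called, and Hsp90b1, Ppib and Gpr17, were chosen after their values were seen. Alternatives were DESeq2 1.42.0, RLE size factors, no filter, only the groups compared, each library left out, blocks or subsets by library number, a Y-linked covariate and the estimated counts rounded to whole numbers. The spliced share of Xbp1 was planned and is not analysed here.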

Additional observations from a re-analysis of the deposited data

Results flagged for a closer look

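Each group of 4 libraries was searched for a library that stood apart from the other 3 (a gap to the nearest library above Dixon's critical value), in 302 groups of values, mostly the genes named in the text. 18 groups held such a library, where chance gives about 1 in 20 groups. The library apart was the high one for Atp2a3 at 0.128 CPM in IFN-gamma replicate 4, BC023105 at 101 CPM in IFN-gamma replicate 3, C1ra at 0.0505 CPM in thapsigargin replicate 1, Cox6a2 at 0.168 CPM in IFN-gamma replicate 2, Iigp1 at 0.0505 CPM in thapsigargin replicate 1, Parp14 at 588 CPM in IFN-gamma replicate 2, Sec24d at 404 CPM in thapsigargin replicate 1 and Tspan18 at 14.7 CPM in thapsigargin replicate 2. It was the low one for Atp2b1 at 116 CPM in IFN-gamma replicate 1, Bcl3 at 22.03 CPM in IFN-gamma replicate 4, Casp4 at 26.3 CPM in IFN-gamma replicate 2, Cth at 95.995 CPM in thapsigargin replicate 4, Jak1 at 148 CPM in IFN-gamma replicate 1, Lum at 3.67 CPM in IFN-gamma replicate 1, Per1 at 41.4 CPM in thapsigargin replicate 3, Sox9 at 94.5 CPM in IFN-gamma replicate 4 and Stat2 at 213 CPM in IFN-gamma replicate 3. Among these, Atp2a3, C1ra, Cox6a2 and Iigp1 rest on 1 to 3 reads in the group, so their library apart is the one that held the reads. Depth was lowest among the IFN-gamma libraries in replicate 4, at 15683135 reads on genes.

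The treatment difference changed between 1 h and 8 h in 7310 genes (edgeR's quasi-likelihood test of the change, Benjamini-Hochberg adjusted p under 0.05), over libraries that the times do not share. Opposite calls at the times were found in Tnfaip3, whose log2 difference changed by 5.18, and in Egr1, whose log2 difference changed by 4.11.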

How the results depend on the processing

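The count of 9289 genes called between the treatments at 8 h lay between 7411 and 9650 over 11 alternatives, and between 8872 and 8983 when each of the 8 libraries was left out in turn. RLE size factors gave 9306, DESeq2 9297, no filter on low counts 8787, only the libraries of the groups compared 9650, a block by lower or upper library number 9461, the Y-linked level as a covariate 9078 and the authors' estimated transcript counts summed to genes 8687. The share of calls higher under IFN-gamma stayed between 48.7% and 52.7%. Leaving out 1 library gave 667 to 867 calls at 1 h, 6959 to 7145 for the change between times, 3186 to 3576 for IFN-gamma against untreated cells and 8706 to 8940 for thapsigargin against untreated cells. The counts that moved by over 1.5 times were the calls at 1 h, 193 in the lower 20 library numbers alone and 526 without the 3 libraries of low Y-linked level at 1 h against 921, and the calls of IFN-gamma against untreated cells, 2456 in the upper 20 alone and 2513 without the 3 libraries of low Y-linked level against 3811; those fits hold fewer libraries. Of 251 genes named by the rule, 218 kept their direction and side of the threshold in every alternative that tested them, 19 for all but Spcs1, which had 18.

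Of 4 genes that changed sign, 3 lay near 0 and Pecam1 was called. Myrf (0.044 on the log2 scale) was -0.21 in the upper 20 library numbers alone, -0.050 with the estimated transcript counts, -0.022 without the 2 libraries rich in rRNA-like reads and -0.12 to 0.17 when single libraries were left out. Mbp (-0.14) was -0.42 to 0.21 when single libraries were left out. Pecam1 (-1.57) was 0.16 with the estimated transcript counts and lost its call in 8 other alternatives, among them those without IFN-gamma replicate 1, 2 or 4 or thapsigargin replicate 2. Xist (0.010) was -0.35 in the lower 20 library numbers alone, -3.80 with the Y-linked level as a covariate, -1.19 without the libraries rich in rRNA-like reads, -4.23 without the libraries of low Y-linked level and -0.82 to 1.44 when single libraries were left out. The cause was not tested. No paired analysis was possible because the labels give library numbers and no shared replicate numbers, and samples were not paired by their values. The spliced share of Xbp1 and its alternatives were not run. The fits without libraries of low Y-linked level or rich in rRNA-like reads were chosen after seeing the data. Genes under a few reads per group are limited by depth, and their folds are given as bounds or ratios.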

Other observations

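Mitochondrially encoded transcripts, which code for subunits of the respiratory chain, were higher under IFN-gamma in 3 of 9 tested genes, against 31.5% of all genes. mt-Nd1, a complex I subunit, was at 982, 896, 1065 and 985 CPM under IFN-gamma and 685, 761, 623 and 753 CPM under thapsigargin (log2 difference 0.48 ± 0.11, adjusted p = 4.22e-04), and the count was 1 in the lower or the upper 20 library numbers alone.

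The authors' gene counts and their estimated transcript counts, summed to genes, were compared gene by gene. Of 14663 genes tested in both, 8093 were called in both and 11 of these in opposite directions. Rabepk had a log2 difference of 0.30 ± 0.10 in the gene table and -2.18 ± 0.092 in the summed transcript table, with 1709 and 7809 reads over the 8 libraries. Fhod1 had a log2 difference of 2.41 ± 0.32 in the gene table and -0.75 ± 0.13 in the summed transcript table, with 159 and 1177 reads. Gm8113 had a log2 difference of 0.74 ± 0.16 in the gene table and -1.09 ± 0.11 in the summed transcript table, with 900 and 7305 reads. In all 11 genes the transcript table held more reads than the gene table. These genes were singled out after their values were seen.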
